A study of Mus musculus with 15 samples.

Results

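Mitosis is the phase in which duplicated chromosomes are condensed, attached to a spindle of microtubules and pulled apart into daughter cells. The 48 genes described here encode proteins of that machinery. They were chosen by name, with earlier results of these data known. Ccna2, Ccnb1, Ccnb2, Cdk1, Cdc25b, Cdc25c, Plk1 and Foxm1 stand for entry into mitosis. Aurka, Tpx2, Aurkb, Birc5, Incenp and Cdca8 stand for the aurora kinases and the chromosomal passenger complex. Bub1, Bub1b, Bub3, Mad2l1 and Ttk stand for the spindle checkpoint. Cenpa, Cenpe, Cenpf, Ndc80, Nuf2, Spc24 and Spc25 belong to the centromere and kinetochore. Kif11, Kif2c, Kif4, Nusap1 and Hmmr act on spindle microtubules. The central spindle and cytokinesis genes were Kif20a, Kif20b, Kif23, Prc1, Anln and Ect2. Cdc20, Ube2c, Espl1 and Pttg1 serve anaphase and chromatid separation, and Smc2, Smc4, Ncapd2, Ncapg, Ncaph, Top2a and Mki67 serve chromosome structure. All 48 were found among 52327 gene entries, and all 48 were among the 13123 genes tested.

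Messenger RNA was measured in a mouse cell line that the labels name HoxB, with Blood as its cell type, in 5 groups of 3 libraries. EMPTY cells carried control vectors. RUNX1-ETO_ONLY cells carried RUNX1-ETO, a fusion transcription factor of acute myeloid leukaemia, and CSF3R_ONLY cells carried CSF3R-T618I, a changed receptor for granulocyte colony-stimulating factor. Both alleles were present in RUNX1-ETO_FIRST and in CSF3R_FIRST cells, named for the allele that came first. The labels do not say how the alleles were introduced, how many clones each group represents or whether the replicates were separate cultures, so p-values measure the spread between these libraries, which may be technical. The title of the series asks about the sequence in which the alleles are acquired.

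In dividing cells, transcripts of many mitosis genes accumulate late in the cycle, in G2 and M phase, and are kept low in resting cells and in early G1. Much of this control acts through a promoter element named CHR (cell cycle genes homology region) bound by the DREAM complex, which represses, or by the MuvB core with B-Myb and FOXM1, which activates. Many such promoters also carry CCAAT boxes, bound by NF-Y. The level of these transcripts in bulk RNA therefore varies with how many cells are near mitosis as well as with the amount per cell. In these bulk libraries fewer cells in mitosis and less RNA per cell cannot be told apart.

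The promoters were read from the RefSeq annotation of GRCm38.p6, in windows of 300 bases that run from 250 before to 50 after a start site. Windows matched 39 of the 48 genes, with 42 windows in all, since 3 genes had more than 1. The 9 genes without a window were Aurkb, Smc4, Spc24, Tpx2, Ccna2, Foxm1, Kif20a, Cdc25c and Incenp. CHR was searched as TTTGAA or TTCGAA and the NF-Y box as CCAAT, both on either strand. The motifs can share end letters, and each was counted on its own. CHR letters were in 34 of 42 windows (81.0%), against 14.3% of the windows of all tested genes and 19.2% of all 32851 windows. CCAAT was in 32 of 42 windows (76.2%), against 38.2% and 37.4%. Both were in 30 windows (71.4%), against 6.03% and 7.52%. When only the 250 bases before the start were read, CHR letters were in 18 windows (42.9%, against 12.6% of tested genes' windows), so many of the matches lay in the 50 bases after the start. A match is a description of these letters and not evidence of binding.

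Of the 42 windows, 6 are printed to show how the elements lie in promoters of genes described below, each as the 250 bases before the start, 5′ to 3′ in the direction of transcription, with CHR and CCAAT letters on either strand in capitals (TTCAAA and ATTGG are the same motifs on the other strand). Cdk1 (chr10:69352913-69353162, minus strand), Cdc20 (chr4:118437344-118437593, minus strand), Espl1 (chr15:102296043-102296292, plus strand) and Kif11 (chr19:37376132-37376381, plus strand) hold a CHR within 30 bases of the start, with at least 1 CCAAT box farther upstream, Top2a (chr11:99024190-99024439, minus strand) holds 6 CCAAT and 4 CHR matches, and Cdc25b (chr2:131186698-131186947, plus strand) stands for the windows without CHR letters before the start, which were the majority, and holds 1 CCAAT there.
Cdk1: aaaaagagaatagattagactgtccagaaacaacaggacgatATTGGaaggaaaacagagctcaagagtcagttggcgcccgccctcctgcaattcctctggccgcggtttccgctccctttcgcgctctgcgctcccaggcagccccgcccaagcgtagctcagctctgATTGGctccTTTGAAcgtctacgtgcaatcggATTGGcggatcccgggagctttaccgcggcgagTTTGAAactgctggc
Cdc20: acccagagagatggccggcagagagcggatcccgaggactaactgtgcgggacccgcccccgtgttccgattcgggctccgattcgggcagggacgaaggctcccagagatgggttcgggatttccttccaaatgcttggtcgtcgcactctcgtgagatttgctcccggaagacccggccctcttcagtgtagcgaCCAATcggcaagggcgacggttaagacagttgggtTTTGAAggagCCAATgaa
Espl1: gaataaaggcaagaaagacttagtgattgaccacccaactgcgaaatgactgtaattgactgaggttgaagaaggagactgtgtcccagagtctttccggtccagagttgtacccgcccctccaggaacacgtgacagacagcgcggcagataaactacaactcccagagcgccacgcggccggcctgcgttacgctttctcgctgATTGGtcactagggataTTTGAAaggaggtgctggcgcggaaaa
Kif11: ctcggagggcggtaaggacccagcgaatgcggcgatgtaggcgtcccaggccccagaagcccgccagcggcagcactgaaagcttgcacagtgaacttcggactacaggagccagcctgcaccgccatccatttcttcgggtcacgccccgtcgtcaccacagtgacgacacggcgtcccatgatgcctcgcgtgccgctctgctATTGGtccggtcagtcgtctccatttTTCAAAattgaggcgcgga
Top2a: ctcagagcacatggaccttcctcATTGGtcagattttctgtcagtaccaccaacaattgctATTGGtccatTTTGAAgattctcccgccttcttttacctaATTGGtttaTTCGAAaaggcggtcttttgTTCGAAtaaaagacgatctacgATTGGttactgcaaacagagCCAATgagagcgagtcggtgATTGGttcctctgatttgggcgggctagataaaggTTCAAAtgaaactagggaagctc
Cdc25b: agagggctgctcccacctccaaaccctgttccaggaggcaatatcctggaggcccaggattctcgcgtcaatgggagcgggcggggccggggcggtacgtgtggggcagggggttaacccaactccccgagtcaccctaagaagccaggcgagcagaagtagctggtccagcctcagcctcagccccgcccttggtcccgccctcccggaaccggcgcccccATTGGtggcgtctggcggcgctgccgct
In Cdk1 the CHR matches began 71 and 15 bases before the start, in Espl1 27, in Kif11 19 and in Cdc20 18. Cdc25b had its only CHR match in the 50 bases after the start.

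Total counts per library were 17007437 to 18178292. Each of the 48 genes had between 165 and 16777 counts in every library. All 8 general blood cell genes examined (Ptprc, Spi1, Lcp1, Coro1a, Laptm5, Cd53, Rac2 and Vav1) were expressed in every group, with sums of 4663 to 7860 CPM, and the 8 lymphoid markers summed to at most 0.441 CPM. In 4 libraries, called length-shifted below, genes with long transcripts were low relative to the other replicates of the group. They were the third replicate of EMPTY, of RUNX1-ETO_ONLY and of CSF3R_FIRST and the first of RUNX1-ETO_FIRST, and counts are given with and without them.

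Levels are given as CPM, counts scaled to a fixed library total with the TMM factors of edgeR, and in the order replicate 1, 2 and 3. The 48 levels summed to 7882, 7749 and 7766 CPM in CSF3R_ONLY, 6624, 6574 and 6221 in EMPTY, 6236, 6406 and 6214 in RUNX1-ETO_ONLY, 5480, 5788 and 5731 in RUNX1-ETO_FIRST and 4459, 4469 and 4277 in CSF3R_FIRST. The sum was thus highest with the receptor alone and lowest in cells that had the receptor first and the fusion second; EMPTY and RUNX1-ETO_ONLY overlapped, and the other groups did not overlap with any. Means were 7799 ± 71.9 (SD, n = 3), 6473 ± 219.5, 6285 ± 105.0, 5666 ± 164 and 4402 ± 108 CPM in that order. By group mean, 41 of the 48 genes were highest in CSF3R_ONLY and 46 were lowest in CSF3R_FIRST. Highest elsewhere were Mad2l1, Ttk, Espl1 and Ncapd2 (RUNX1-ETO_ONLY), Cdk1 and Spc24 (EMPTY) and Pttg1 (CSF3R_FIRST); Cdc25b was lowest in EMPTY and Pttg1 in RUNX1-ETO_FIRST. The highest group mean exceeded the lowest by 1.10-fold for Pttg1, 1.27-fold for Bub3, 2.37-fold for Ndc80 and 3.03-fold for Mki67, the ends of the range. Per kb of transcript, EMPTY cells held on average most Ube2c (129.5 CPM per kb), Plk1 (108) and Ncapd2 (105.6) and least Cenpf (5.87). The mean of Ube2c was raised by EMPTY replicate 3, where its level was well above that in the other EMPTY libraries.

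**Figure D1:**
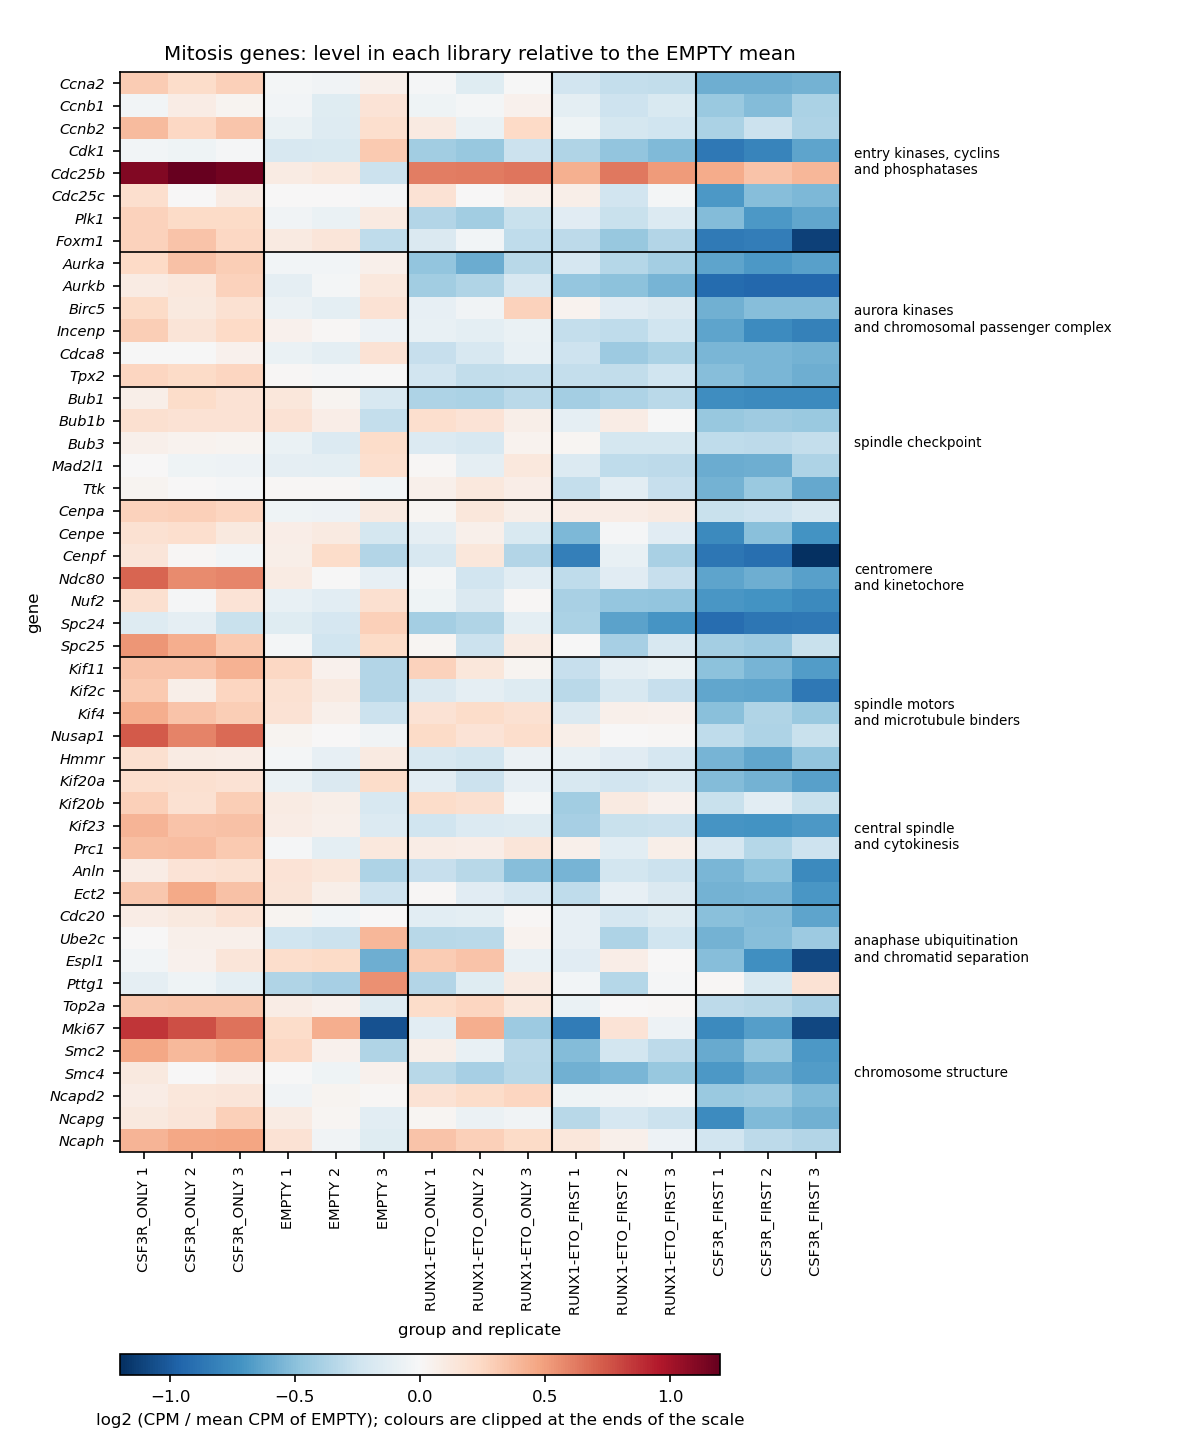
Level of each of the 48 genes (vertical axis, grouped by role) in each of the 15 libraries (horizontal axis), as the log2 ratio to the mean of EMPTY; red is above and blue below. CSF3R_FIRST libraries are blue in nearly every line, CSF3R_ONLY libraries mostly red, and Cdc25b is red in all groups other than EMPTY.

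The comparison of the 2 orders set RUNX1-ETO_FIRST against CSF3R_FIRST. With the fusion first, 33 of the 48 genes were higher (7.22% of all tested genes were) and 0 were lower (11.1% of all tested genes were), by edgeR's quasi-likelihood test at an adjusted p under 0.05; 15 did not pass. DESeq2 also gave 33 and 0, and at an unadjusted p under 0.05 the counts were 37 and 0. The median change was 0.34 on the log2 scale, against 0.00 over all genes, and 47 of 48 changes were positive. "Rose" and "fell" below mean past that threshold, and ± is the standard error of the log2 change. The counts by role were 5 of 8 entry genes, 5 of 6 genes of the aurora kinases and passenger complex, 3 of 5 checkpoint genes, 5 of 7 centromere and kinetochore genes, 5 of 5 genes of spindle motors and microtubule binders, 4 of 6 genes of the central spindle and cytokinesis, 2 of 4 anaphase genes and 4 of 7 genes of chromosome structure.

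Among the entry genes, Foxm1 (chr6:128362967-128376146, plus strand), the transcription factor that activates many of the others in G2, measured 185, 194 and 182 CPM in CSF3R_ONLY, 165, 169 and 124 in EMPTY, 136, 149 and 124 in RUNX1-ETO_ONLY, 123, 112 and 119.6 in RUNX1-ETO_FIRST and 84.9, 86.1 and 70.2 in CSF3R_FIRST. All CSF3R_FIRST libraries lay below all others and all CSF3R_ONLY libraries above all others. Foxm1 was 1.47-fold higher with the fusion first (0.56 ± 0.11, adjusted p = 0.00274). Cdk1, the kinase that drives entry into mitosis with cyclin B, measured 125, 124 and 127 CPM in CSF3R_ONLY, 112, 113 and 159 in EMPTY, 96.2, 93.6 and 107 in RUNX1-ETO_ONLY, 99.8, 92.6 and 88.8 in RUNX1-ETO_FIRST and 70.8, 73.9 and 82.5 in CSF3R_FIRST. Its RUNX1-ETO_FIRST and CSF3R_FIRST libraries did not overlap, yet the difference did not pass (0.31 ± 0.12, adjusted p = 0.0811). Ccna2, cyclin A2, partner of Cdk2 and Cdk1, measured 337, 319 and 334 CPM in CSF3R_ONLY, 269.8, 266 and 285 in EMPTY, 271, 246 and 272 in RUNX1-ETO_ONLY, 232, 224 and 222 in RUNX1-ETO_FIRST and 182, 182 and 185 in CSF3R_FIRST. No CSF3R_FIRST library reached another group, and the order difference passed (0.31 ± 0.06, adjusted p = 0.00281). Plk1, the polo-like kinase that activates Cdk1 and acts at centrosomes and kinetochores, also rose (0.42 ± 0.07, adjusted p = 0.000845). So did Cdc25c, a phosphatase that activates Cdk1 (0.52 ± 0.10, adjusted p = 0.00184), and Ccnb1, cyclin B1 (0.27 ± 0.08, adjusted p = 0.0315). Ccnb2 (0.18 ± 0.10) and Cdc25b (0.13 ± 0.09) did not pass.

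Of the chromosomal passenger complex, which corrects faulty attachments of chromosomes and later directs cytokinesis, Incenp, its scaffold, measured 277, 250.4 and 266 CPM in CSF3R_ONLY, 233, 228 and 216 in EMPTY, 213, 209 and 213 in RUNX1-ETO_ONLY, 185, 183 and 191 in RUNX1-ETO_FIRST and 146, 134 and 129 in CSF3R_FIRST. The 5 groups did not overlap at all, in that order from high to low. Incenp was 1.37-fold higher with the fusion first (0.45 ± 0.07, adjusted p = 0.000193). Aurkb, the kinase of the complex, measured 164, 167 and 186 CPM in CSF3R_ONLY, 142, 151 and 167 in EMPTY, 115, 119 and 134 in RUNX1-ETO_ONLY, 111, 109 and 104 in RUNX1-ETO_FIRST and 80.7, 79.7 and 79.7 in CSF3R_FIRST. The 3 CSF3R_FIRST libraries were the lowest of all 15, and the 3 of RUNX1-ETO_FIRST came next. The order difference was 0.43 ± 0.08, adjusted p = 0.00144. Birc5, or survivin (0.45 ± 0.10), Aurka, the centrosome kinase (0.34 ± 0.08), and Tpx2, its activator on the spindle (0.27 ± 0.06), rose as well. Cdca8, or borealin, did not pass (0.20 ± 0.08, adjusted p = 0.11).

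The spindle checkpoint delays anaphase until every kinetochore is attached. Bub1b, which encodes the checkpoint protein BubR1, measured 107, 106 and 106 CPM in CSF3R_ONLY, 106, 99.3 and 76.9 in EMPTY, 108, 105 and 98.6 in RUNX1-ETO_ONLY, 87.4, 99.8 and 93.4 in RUNX1-ETO_FIRST and 68.7, 69.97 and 69.1 in CSF3R_FIRST. CSF3R_FIRST lay below all other libraries, and EMPTY replicate 3 lay far below the other EMPTY libraries. The order difference was 0.43 ± 0.10, adjusted p = 0.00515. Bub1, a checkpoint kinase at the kinetochore, measured 125, 139 and 134 CPM in CSF3R_ONLY, 130.4, 122 and 104 in EMPTY, 91.8, 91.1 and 95 in RUNX1-ETO_ONLY, 89.6, 91.7 and 94.7 in RUNX1-ETO_FIRST and 70.8, 69.8 and 70.2 in CSF3R_FIRST. RUNX1-ETO_FIRST and RUNX1-ETO_ONLY overlapped with each other and lay between EMPTY and CSF3R_FIRST. Bub1 differed by 0.39 ± 0.08 and Ttk, the kinase MPS1, by 0.31 ± 0.07, both past the threshold. Mad2l1, the Cdc20 inhibitor MAD2 (0.26 ± 0.10, adjusted p = 0.0778), and Bub3 (0.17 ± 0.10, adjusted p = 0.251) did not pass.

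At the kinetochore, Cenpf, a large protein of the outer kinetochore whose transcript is the longest of the 48 at 11.1 kb, measured 72.5, 66.1 and 64.02 CPM in CSF3R_ONLY, 68.7, 76 and 51.4 in EMPTY, 57.4, 71.6 and 51.2 in RUNX1-ETO_ONLY, 37.1, 61.5 and 50.02 in RUNX1-ETO_FIRST and 35.9, 34.96 and 26.4 in CSF3R_FIRST. The ranges of the 2 double groups did not overlap, but RUNX1-ETO_FIRST replicate 1 at 37.1 CPM was close to the highest CSF3R_FIRST library. The order difference was 0.61 ± 0.19, adjusted p = 0.032, without the 4 length-shifted libraries 0.63. Ndc80, a subunit of the complex that binds microtubule ends, measured 31.3, 28.5 and 28.9 CPM in CSF3R_ONLY, 20.6, 19.2 and 17.99 in EMPTY, 18.97, 16.4 and 17.6 in RUNX1-ETO_ONLY, 15.6, 17.5 and 15.9 in RUNX1-ETO_FIRST and 12.4, 12.8 and 12.2 in CSF3R_FIRST. CSF3R_ONLY stood above and CSF3R_FIRST below all other groups. The difference between the orders was 0.39 ± 0.09, adjusted p = 0.00765. Nuf2, its partner (0.29 ± 0.09), Cenpe, a kinetochore motor (0.44 ± 0.13), and Cenpa, the histone H3 variant of centromeres (0.33 ± 0.07), rose. Spc24 (0.31 ± 0.13) and Spc25 (0.18 ± 0.13), the other subunits of the Ndc80 complex, did not pass.

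All 5 genes of spindle motors and microtubule binders rose, between 0.34 and 0.44. Kif2c, a kinesin that depolymerises microtubules at the centromere, measured 76.96, 65.1 and 74.3 CPM in CSF3R_ONLY, 70.4, 67.1 and 48.8 in EMPTY, 55.02, 57.5 and 55.8 in RUNX1-ETO_ONLY, 49.5, 54.3 and 51.4 in RUNX1-ETO_FIRST and 40.2, 39.97 and 34.2 in CSF3R_FIRST. No CSF3R_FIRST library overlapped RUNX1-ETO_FIRST, and the difference was 0.44 ± 0.12, adjusted p = 0.0164. Nusap1, which bundles spindle microtubules, measured 131, 119 and 126 CPM in CSF3R_ONLY, 80.6, 79.2 and 76.7 in EMPTY, 92.5, 88.5 and 91.1 in RUNX1-ETO_ONLY, 82.96, 79.04 and 79.7 in RUNX1-ETO_FIRST and 63.7, 61.1 and 65.7 in CSF3R_FIRST. Here RUNX1-ETO_FIRST overlapped EMPTY, with CSF3R_FIRST below and the 2 single-allele groups above. The order difference was 0.34 ± 0.06, adjusted p = 0.00134, and those of Kif11, Kif4 and Hmmr were 0.42, 0.41 and 0.41.

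Of the genes for the central spindle and cytokinesis, Ect2, which activates RhoA at the division plane, measured 89.2, 98.1 and 91.4 CPM in CSF3R_ONLY, 79.4, 74.9 and 60.1 in EMPTY, 72, 64.99 and 61.99 in RUNX1-ETO_ONLY, 58, 66.6 and 63.4 in RUNX1-ETO_FIRST and 48.1, 48.4 and 44.1 in CSF3R_FIRST. CSF3R_FIRST was below and CSF3R_ONLY above all other libraries, and the order difference was 0.42 ± 0.10, adjusted p = 0.0084. Kif23, a kinesin of the central spindle, measured 88.6, 84.4 and 85.5 CPM in CSF3R_ONLY, 70.95, 69.7 and 59.7 in EMPTY, 56.6, 59.5 and 59.9 in RUNX1-ETO_ONLY, 50.8, 55.6 and 55.9 in RUNX1-ETO_FIRST and 40.9, 40.5 and 41.5 in CSF3R_FIRST. The 2 double groups were lowest and did not overlap each other or any other group (0.40 ± 0.08, adjusted p = 0.00156). Kif20a (0.37) and Prc1, which crosslinks antiparallel microtubules (0.27), rose. Anln, or anillin, measured 104, 109 and 110.4 CPM in CSF3R_ONLY, 109.5, 107 and 75.6 in EMPTY, 80.3, 77.6 and 68.4 in RUNX1-ETO_ONLY, 66.1, 83.7 and 81.8 in RUNX1-ETO_FIRST and 66.5, 69.9 and 57.2 in CSF3R_FIRST, and here the 2 double groups overlapped (0.26 ± 0.13, adjusted p = 0.202). Kif20b was at 0.15 ± 0.12 and did not pass either.

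Espl1 (chr15:102296266-102324357, plus strand), which encodes separase, the protease that cuts cohesin at anaphase, measured 103, 109 and 116 CPM in CSF3R_ONLY, 122, 123 and 70.2 in EMPTY, 129.8, 133 and 98.98 in RUNX1-ETO_ONLY, 95.7, 111 and 105 in RUNX1-ETO_FIRST and 73.9, 63 and 49.4 in CSF3R_FIRST. The CSF3R_FIRST libraries lay below those of RUNX1-ETO_FIRST, and EMPTY replicate 3 fell within the CSF3R_FIRST range. Its order difference, 0.74 ± 0.19, adjusted p = 0.0116 or 1.67-fold, was the largest among the 33 genes that rose; without CSF3R_FIRST replicate 3 it was 0.57 and no longer passed (adjusted p = 0.0767). Cdc20, which activates the anaphase-promoting complex, rose by 0.40 ± 0.07. Ube2c, the ubiquitin-conjugating enzyme of that complex, measured 284, 297 and 296 CPM in CSF3R_ONLY, 239.7, 238 and 374 in EMPTY, 225, 227 and 293 in RUNX1-ETO_ONLY, 265, 219 and 239.9 in RUNX1-ETO_FIRST and 192, 199 and 209 in CSF3R_FIRST. No library of CSF3R_FIRST reached any RUNX1-ETO_FIRST library, but the difference did not pass (0.27 ± 0.15, adjusted p = 0.241). Pttg1 (chr11:43420250-43426251, minus strand), or securin, the inhibitor of separase, measured 15.1, 15.7 and 15 CPM in CSF3R_ONLY, 12.7, 12.4 and 23.8 in EMPTY, 12.7, 14.7 and 17.5 in RUNX1-ETO_ONLY, 15.9, 12.9 and 16.1 in RUNX1-ETO_FIRST and 16.5, 14.3 and 18.3 in CSF3R_FIRST. All 5 groups overlapped, and Pttg1 alone of the 48 had a change below 0 (-0.13 ± 0.21, adjusted p = 0.719).

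Among the genes of chromosome structure, Ncapd2, a condensin subunit, measured 522, 538 and 540.2 CPM in CSF3R_ONLY, 475, 499 and 493 in EMPTY, 550.2, 569.8 and 584 in RUNX1-ETO_ONLY, 473, 475 and 480.3 in RUNX1-ETO_FIRST and 359.9, 364 and 339 in CSF3R_FIRST. CSF3R_FIRST was lowest, RUNX1-ETO_FIRST overlapped EMPTY, and the order difference was 0.43 ± 0.06, adjusted p = 0.00015. Top2a, the topoisomerase that disentangles sister chromatids, measured 599, 599.8 and 601 CPM in CSF3R_ONLY, 508, 494 and 430.2 in EMPTY, 554, 571 and 524 in RUNX1-ETO_ONLY, 450.3, 480.4 and 483 in RUNX1-ETO_FIRST and 384, 379.6 and 362 in CSF3R_FIRST. Only RUNX1-ETO_FIRST and EMPTY overlapped, and the difference of the orders was 0.33 ± 0.07, adjusted p = 0.00493. Ncapg and Ncaph, the other condensin I subunits listed, rose by 0.35 and 0.34, whereas the core subunits Smc2 (0.23 ± 0.14) and Smc4 (0.12 ± 0.06) did not pass. Mki67 (chr7:135689784-135716361, minus strand), the proliferation antigen Ki-67 that coats mitotic chromosomes, measured 979, 923 and 849 CPM in CSF3R_ONLY, 628, 728 and 261 in EMPTY, 495, 731 and 399 in RUNX1-ETO_ONLY, 302, 605 and 516 in RUNX1-ETO_FIRST and 317, 340 and 252 in CSF3R_FIRST. CSF3R_ONLY was above all other libraries, but RUNX1-ETO_FIRST replicate 1 lay inside the CSF3R_FIRST range. The order difference of Mki67, 0.65 ± 0.32, did not pass (adjusted p = 0.182); without the 4 length-shifted libraries it was 0.75 with an adjusted p of 0.0307.

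**Figure D2:**
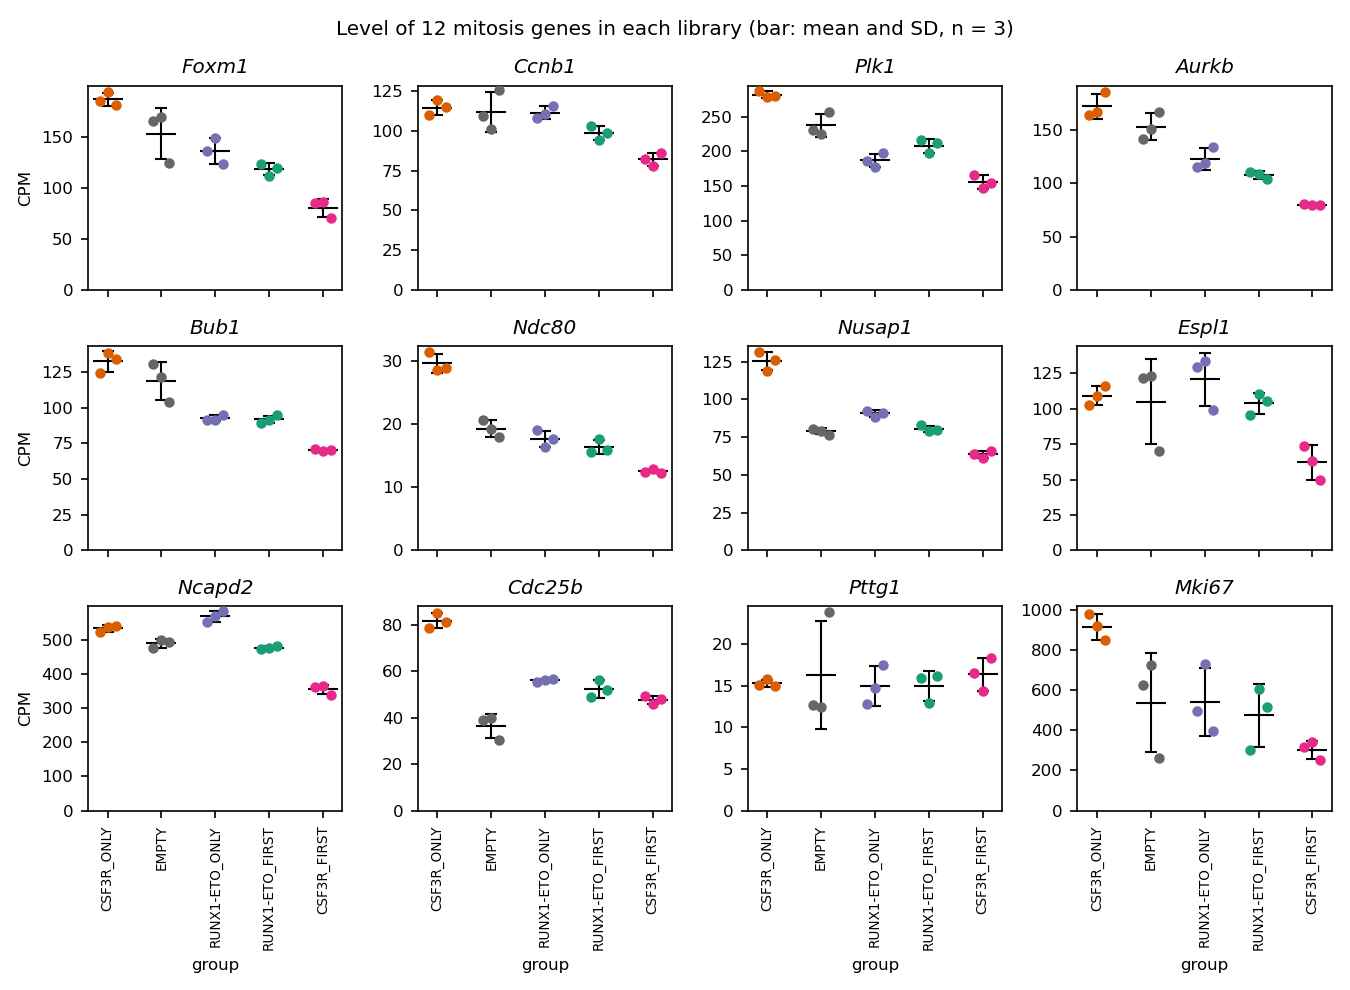
Level in CPM (vertical axis, from 0) of 12 genes in each library, by group; points are libraries and bars the mean and SD of 3. Foxm1, Aurkb, Ndc80 and Ncapd2 are lowest in CSF3R_FIRST, Cdc25b is lowest in EMPTY, the groups of Pttg1 overlap, and Mki67 has single low libraries in EMPTY and RUNX1-ETO_FIRST.

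The direction of the order comparison held when each of the 6 libraries was left out in turn, but its size moved: the number of genes that rose was 21 without CSF3R_FIRST replicate 3, 25 without RUNX1-ETO_FIRST replicate 3, 28 without either replicate 2 and 30 without either replicate 1. Calls were kept in all 6 fits for 20 of the 33. Ccnb1, Ttk, Cenpe, Cenpf, Nuf2, Kif11, Kif20a, Kif2c, Kif4, Prc1, Ect2, Espl1 and Ncaph lost theirs in at least 1 fit, at adjusted p up to 0.17. Nuf2 kept its call in 0 of 6 fits, Ccnb1 in 1, Cenpe, Cenpf, Kif11 and Prc1 in 2 and Kif2c in 3, while Ttk, Kif20a, Kif4, Ect2, Espl1 and Ncaph kept theirs in 5. Without the 4 length-shifted libraries 40 genes rose, all 33 among them, and 0 fell.

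With CSF3R-T618I alone against EMPTY, 19 of the 48 genes rose (19.9% of all tested genes did) and 0 fell (13.2% of all tested genes did); the median change was 0.19 against 0.00 over all genes. DESeq2 gave 20 and 0, and at an unadjusted p under 0.05 the counts were 24 and 0. The entry, aurora and passenger, kinetochore, microtubule, cytokinesis and chromosome genes gave 4 of 8, 3 of 6, 3 of 7, 3 of 5, 3 of 6 and 3 of 7, and 0 of 5 checkpoint genes and 0 of 4 anaphase genes passed. Cdc25b (chr2:131186949-131198497, plus strand), a phosphatase that starts Cdk1 activation at the centrosome, measured 78.7, 85.1 and 81.3 CPM in CSF3R_ONLY, 38.9, 39.8 and 30.3 in EMPTY, 55.5, 56.1 and 56.5 in RUNX1-ETO_ONLY, 48.7, 56.3 and 51.7 in RUNX1-ETO_FIRST and 49.3, 46 and 47.8 in CSF3R_FIRST. CSF3R_ONLY was highest and EMPTY lowest, with no other group in either range. Its rise was 2.25-fold (1.17 ± 0.09, adjusted p = 8.01e-08). Nusap1 rose by 0.67 ± 0.06, adjusted p = 5.35e-07, and Ndc80 by 0.62 ± 0.09, adjusted p = 4.42e-05. Mki67 had a larger change than those of Nusap1 and Ndc80 but an SE of 0.32 and did not pass (0.77, adjusted p = 0.0771); with EMPTY replicate 2 left out it was 1.05 (adjusted p = 0.0299), and with EMPTY replicate 3 left out 0.41 (adjusted p = 0.343). Ncapd2 did not pass (0.12 ± 0.06, adjusted p = 0.133). Ccnb2, Plk1, Incenp, Spc25, Kif11, Kif4 and Smc2 lost their calls when 1 library was left out, at adjusted p up to 0.102. Without CSF3R_ONLY replicate 1 the count was 12, and without the 4 length-shifted libraries 29 rose and 1 fell. When EMPTY and CSF3R_ONLY were fitted alone, 7 rose.

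With RUNX1-ETO alone against EMPTY the genes moved both ways: 5 rose (20.8% of all tested genes did), 8 fell (18.2% of all tested genes did) and 35 did not pass, shares below those of all genes for rises and near them for falls. The median was -0.07, against 0.01 over all genes, and with scaling by library size it was 0.00. The 5 that rose were Cdc25b (0.62 ± 0.09, adjusted p = 6.09e-05), the condensin subunits Ncaph (0.28 ± 0.08) and Ncapd2 (0.22 ± 0.06), Nusap1 (0.20 ± 0.06) and Top2a (0.20 ± 0.07). Those that fell were Aurka, Tpx2, Aurkb, Cdk1, Plk1, Bub1, Anln and Smc4. Aurka measured 127, 137 and 132 CPM in CSF3R_ONLY, 105, 105 and 113 in EMPTY, 77.8, 71.5 and 85.5 in RUNX1-ETO_ONLY, 93.5, 85.2 and 81.2 in RUNX1-ETO_FIRST and 69.5, 66.96 and 68.5 in CSF3R_FIRST. RUNX1-ETO_ONLY lay below EMPTY and above CSF3R_FIRST with no overlap. Its range overlapped the lower part of the RUNX1-ETO_FIRST range and reached below it. The change from EMPTY was -0.46 ± 0.08, adjusted p = 0.000184. Tpx2, which activates the Aurka protein, fell by 0.27 ± 0.06, adjusted p = 0.00119; Cdk1 changed by -0.37 ± 0.12, adjusted p = 0.0182; and Anln changed by -0.37 ± 0.13, adjusted p = 0.0352. Calls for Cdk1, Top2a, Anln, Nusap1 and Ncaph were lost when 1 library was left out, at adjusted p up to 0.169. With the replicate number as a block over all libraries the counts were again 5 and 8. In a fit of these 2 groups alone 1 rose, and with the block in that fit 3 rose. Without EMPTY replicate 3 the counts were 2 and 13, without RUNX1-ETO_ONLY replicate 1 they were 2 and 7, and without the 4 length-shifted libraries 5 and 18.

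Each double group was set against the same 3 EMPTY libraries. RUNX1-ETO_FIRST had 1 gene higher (23.7% of all tested genes were), 20 lower (20.2% of all tested genes were) and 27 not past the threshold, with a median of -0.20 against -0.02 over all genes. CSF3R_FIRST had 1 higher (26.8% of all tested genes were), 45 lower (26.7% of all tested genes were) and 2 not past it, with a median of -0.57 against -0.05. Cdc25b was the gene that rose in both (0.52 ± 0.09, adjusted p = 0.000278, and 0.39 ± 0.09, adjusted p = 0.00233). With CSF3R_FIRST scaled by library sizes alone, Cdc25b no longer passed (0.24, adjusted p = 0.0606).

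In RUNX1-ETO_FIRST the largest falls were those of Spc24, Smc4 and Aurkb. Spc24, a subunit of the Ndc80 complex, measured 31.7, 32.7 and 29.2 CPM in CSF3R_ONLY, 31.95, 30.8 and 43.1 in EMPTY, 26.7, 27.4 and 32.6 in RUNX1-ETO_ONLY, 27.04, 22.7 and 21.7 in RUNX1-ETO_FIRST and 18.8, 19.4 and 19.5 in CSF3R_FIRST. EMPTY was above RUNX1-ETO_FIRST with no overlap (-0.57 ± 0.13, adjusted p = 0.00178), and CSF3R_FIRST was lower still (-0.87 ± 0.13, adjusted p = 3.08e-05). Smc4, a core subunit of condensin, measured 249, 230.5 and 237 CPM in CSF3R_ONLY, 228, 222 and 238 in EMPTY, 182, 174 and 182 in RUNX1-ETO_ONLY, 153, 156 and 167 in RUNX1-ETO_FIRST and 142, 152 and 144 in CSF3R_FIRST. All 3 groups with the fusion lay below EMPTY and CSF3R_ONLY. The changes against EMPTY were -0.53 ± 0.06, adjusted p = 4.8e-06 in RUNX1-ETO_FIRST and -0.65 ± 0.06 in CSF3R_FIRST. Aurkb changed by -0.51 ± 0.08, adjusted p = 7.73e-05 and by -0.94 ± 0.08, adjusted p = 7.73e-08 in the same groups. By role, 5 of 6 aurora and passenger genes fell in RUNX1-ETO_FIRST and 0 of 5 genes of spindle motors and microtubule binders did (at most -0.26, for Kif2c). Top2a (-0.02 ± 0.07) and Mki67 (-0.18 ± 0.32) did not pass. The count of 20 ranged from 14 (without EMPTY replicate 1, RUNX1-ETO_FIRST replicate 1 or RUNX1-ETO_FIRST replicate 3) to 23 (without EMPTY replicate 3), and Plk1, Mad2l1, Ttk, Ndc80, Anln, Smc2, Ncapg and Foxm1 lost their calls in at least 1 of those fits, at adjusted p up to 0.238; Plk1 and Anln kept theirs in 1 of 6. When EMPTY and RUNX1-ETO_FIRST were fitted alone, 10 fell. Without the 4 length-shifted libraries 27 fell and 1 rose, with all 21 calls among them.

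In CSF3R_FIRST the falls took in every gene of 5 roles, and the largest were those of Cenpf (-1.01 ± 0.19, adjusted p = 0.000266), Aurkb and Foxm1 (-0.93 ± 0.11, adjusted p = 4.56e-06). Pttg1 (0.01 ± 0.21) and Kif20b (-0.22 ± 0.12, adjusted p = 0.147) did not pass. Kif20b, a kinesin of late cytokinesis, measured 103, 96.1 and 104 CPM in CSF3R_ONLY, 90.8, 88.9 and 74.2 in EMPTY, 98.9, 96.8 and 83.2 in RUNX1-ETO_ONLY, 63.3, 91.1 and 87.7 in RUNX1-ETO_FIRST and 70.5, 77.6 and 70.3 in CSF3R_FIRST. CSF3R_FIRST lay within the range of RUNX1-ETO_FIRST there, and it overlapped EMPTY through EMPTY replicate 3. The count of 45 was 42 to 44 when 1 of the 6 libraries was left out, where Bub3, Spc25, Mki67 and Ncaph lost their calls in at least 1 fit, at adjusted p up to 0.176 (Mki67 kept its call in 1 of 6), and 46 fell and 2 rose without the 4 length-shifted libraries. With the replicate number as a block, 45 fell and 1 rose.

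**Figure D3:**
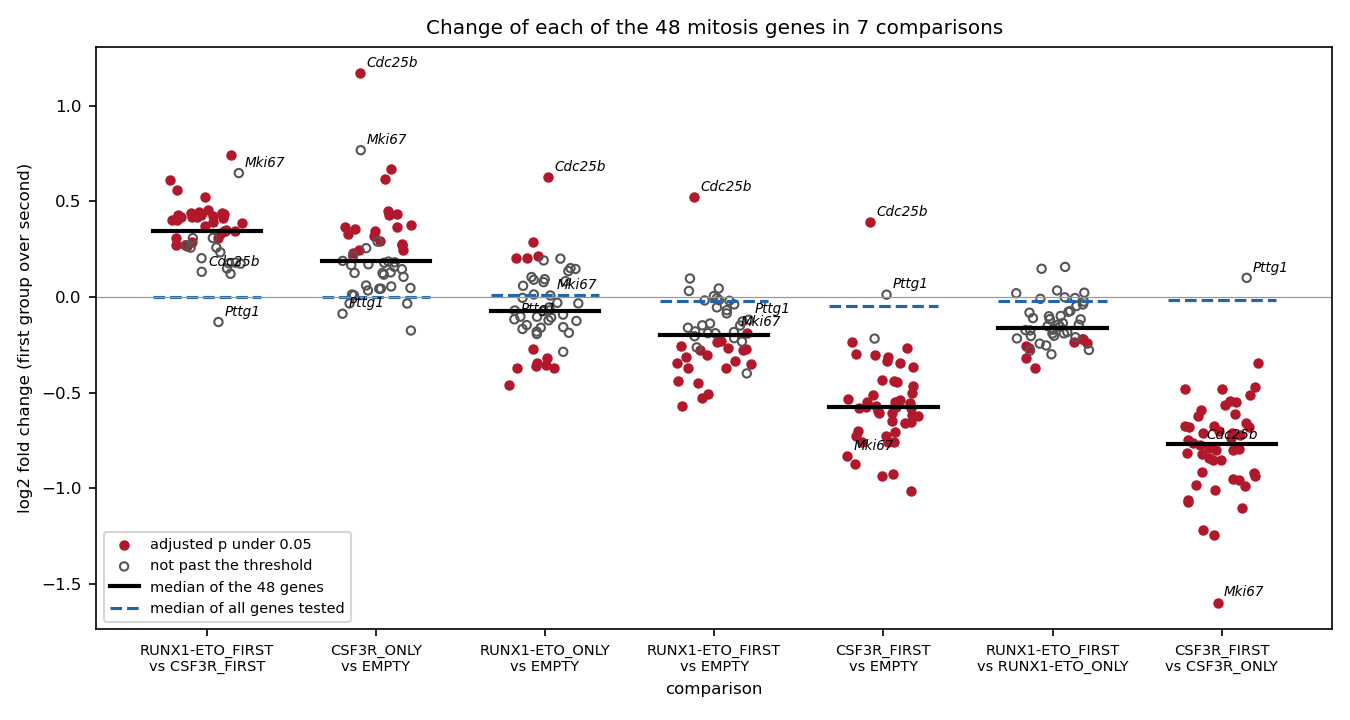
Log2 change (vertical axis) of each of the 48 genes in the 7 pair comparisons (horizontal axis); filled points pass the threshold, black lines are the medians of the 48 and dashed lines those of all 13123 genes. The medians run from 0.34 between the orders to -0.77 for CSF3R_FIRST against CSF3R_ONLY, and Cdc25b stands above the others in each comparison with EMPTY.

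Each double group also differs by 1 allele from the single group that carries the allele named first. Adding an allele is a short name for these comparisons. The labels do not say that the double-allele cells came from the single-allele cells compared. When the receptor was added to cells with the fusion (RUNX1-ETO_FIRST against RUNX1-ETO_ONLY), 0 genes rose (16% of all tested genes did), 8 fell (10.3% of all tested genes did) and 40 did not pass; the median was -0.16 against -0.02. The counts by DESeq2 were 0 and 11, and at an unadjusted p under 0.05 they were 1 and 16. When the fusion was added to cells with the receptor (CSF3R_FIRST against CSF3R_ONLY), 0 rose (22.3% of all tested genes did), 47 fell (22.6% of all tested genes did) and Pttg1 alone did not pass; the median was -0.77 against -0.02. DESeq2 gave 0 and 47 as well, as did an unadjusted p under 0.05.

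The 8 genes that fell on adding the receptor were Ccna2, Mad2l1, Ttk, Nuf2, Top2a, Ncapd2, Ncapg and Ncaph. Nuf2 measured 67.7, 58.6 and 66.7 CPM in CSF3R_ONLY, 55.97, 54.4 and 67.7 in EMPTY, 57.2, 52.6 and 59.8 in RUNX1-ETO_ONLY, 45.4, 43.1 and 42.6 in RUNX1-ETO_FIRST and 36.5, 36.1 and 34.9 in CSF3R_FIRST. RUNX1-ETO_FIRST lay between RUNX1-ETO_ONLY and CSF3R_FIRST without overlap, and the fall from RUNX1-ETO_ONLY was -0.37 ± 0.09, adjusted p = 0.00603. Ttk, the checkpoint kinase, measured 36.8, 35.9 and 35.6 CPM in CSF3R_ONLY, 36.2, 36.3 and 35.1 in EMPTY, 37.4, 39.3 and 37.8 in RUNX1-ETO_ONLY, 29.4, 32.8 and 29.5 in RUNX1-ETO_FIRST and 24.2, 26.4 and 23.5 in CSF3R_FIRST. Its 2 double groups were below all others and did not overlap (-0.32 ± 0.07, adjusted p = 0.00359). Mad2l1 measured 130.3, 125 and 124 CPM in CSF3R_ONLY, 120.3, 119 and 149 in EMPTY, 131, 120.1 and 141 in RUNX1-ETO_ONLY, 116, 105 and 104 in RUNX1-ETO_FIRST and 85.8, 86.2 and 100 in CSF3R_FIRST. RUNX1-ETO_FIRST and RUNX1-ETO_ONLY did not overlap, and the change passed narrowly (-0.27 ± 0.10, adjusted p = 0.0495). Mki67 (-0.19 ± 0.32) and Ube2c (-0.04 ± 0.15) did not pass. Ccna2, Mad2l1, Top2a, Ncapg and Ncaph lost their calls when 1 library was left out, at adjusted p up to 0.174, which left Ttk, Nuf2 and Ncapd2; Ncapg kept its call in 0 of 6 fits. The count was 3 without RUNX1-ETO_ONLY replicate 1 and also 3 without RUNX1-ETO_FIRST replicate 2, 4 without either replicate 3, 3 with no filter on low counts, 5 with only the 2 groups fitted, 16 with offsets for transcript length, 22 when scaled by library size and 20 without the 4 length-shifted libraries.

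On adding the fusion to the receptor, the falls ran from -0.34 for Bub3 to -1.60 for Mki67. The largest were those of Mki67 (-1.60 ± 0.32, adjusted p = 0.00076), Ndc80 (-1.24 ± 0.09, adjusted p = 1.65e-08), a 2.37-fold difference, and Foxm1 (-1.22 ± 0.11, adjusted p = 3.17e-07), a 2.32-fold difference. Aurkb (-1.11 ± 0.08), Kif23 (-1.07 ± 0.08), Nusap1 (-0.98 ± 0.06), Bub1 (-0.92 ± 0.08) and Espl1 (-0.81 ± 0.19) had the largest falls of their roles. Cdc25b fell here too (-0.78 ± 0.09, adjusted p = 4.5e-06). All 47 calls were kept with each of the 6 libraries left out. The difference between adding the receptor and adding the fusion was not tested on its own.

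A test of additivity asked whether the change of a double group from EMPTY differed from the sum of both single changes on the log2 scale. For RUNX1-ETO_FIRST, 22 genes were below the sum (9.42% of all tested genes were) and 0 above it (6.42% of all tested genes were), with a median departure of -0.33 against -0.02 over all genes. For CSF3R_FIRST, 42 were below (12.5% of all tested genes were) and 0 above (10.4% of all tested genes were), with a median of -0.77 against -0.04. At an unadjusted p under 0.05 the counts were 29 and 0 and, for CSF3R_FIRST, 44 and 0; DESeq2 gave 24 and 0, and 42 and 0. The sign of the median departure is the same under every scaling tried. Both tests use the same 9 libraries of EMPTY and the single-allele groups.

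For RUNX1-ETO_FIRST the largest departures were those of Cdc25b (-1.27 ± 0.13, adjusted p = 5.72e-06), Nusap1 (-0.84 ± 0.09, adjusted p = 7.53e-06) and Ndc80 (-0.73 ± 0.13, adjusted p = 0.000729). Each of these had risen with the receptor alone; against EMPTY, RUNX1-ETO_FIRST had Cdc25b higher, Ndc80 lower (-0.24 ± 0.09, adjusted p = 0.0434) and Nusap1 not past the threshold (0.03 ± 0.06). In CSF3R_FIRST the largest were those of Mki67 (-1.60 ± 0.45, adjusted p = 0.017), Cdc25b (-1.40 ± 0.13, adjusted p = 2.05e-06) and Nusap1 (-1.18 ± 0.09, adjusted p = 2.18e-07). Departures that did not pass in CSF3R_FIRST were those of Cdk1 (-0.35 ± 0.16), Spc24 (-0.41 ± 0.18), Anln (-0.37 ± 0.19), Ube2c (-0.35 ± 0.21), Bub3 (-0.24 ± 0.14) and Pttg1 (0.22 ± 0.29). The count of 22 fell to 13 without RUNX1-ETO_FIRST replicate 3, and 15 without RUNX1-ETO_ONLY replicate 1, CSF3R_ONLY replicate 3 or RUNX1-ETO_FIRST replicate 1; Aurkb, Ttk, Nuf2, Spc25, Tpx2, Ect2, Smc2, Ncapg and Foxm1 lost their calls in at least 1 of 12 fits, at adjusted p up to 0.133, and Tpx2 kept its call in 0 and Ttk in 1 of them. Without the 4 length-shifted libraries 30 genes were below the sum, with 21 of the 22 among them. The count of 42 was 38 to 44, and Cdca8, Cenpf, Kif20b and Mki67 lost theirs, at adjusted p up to 0.0984; without the 4 length-shifted libraries 46 were below the sum.

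**Figure D4:**
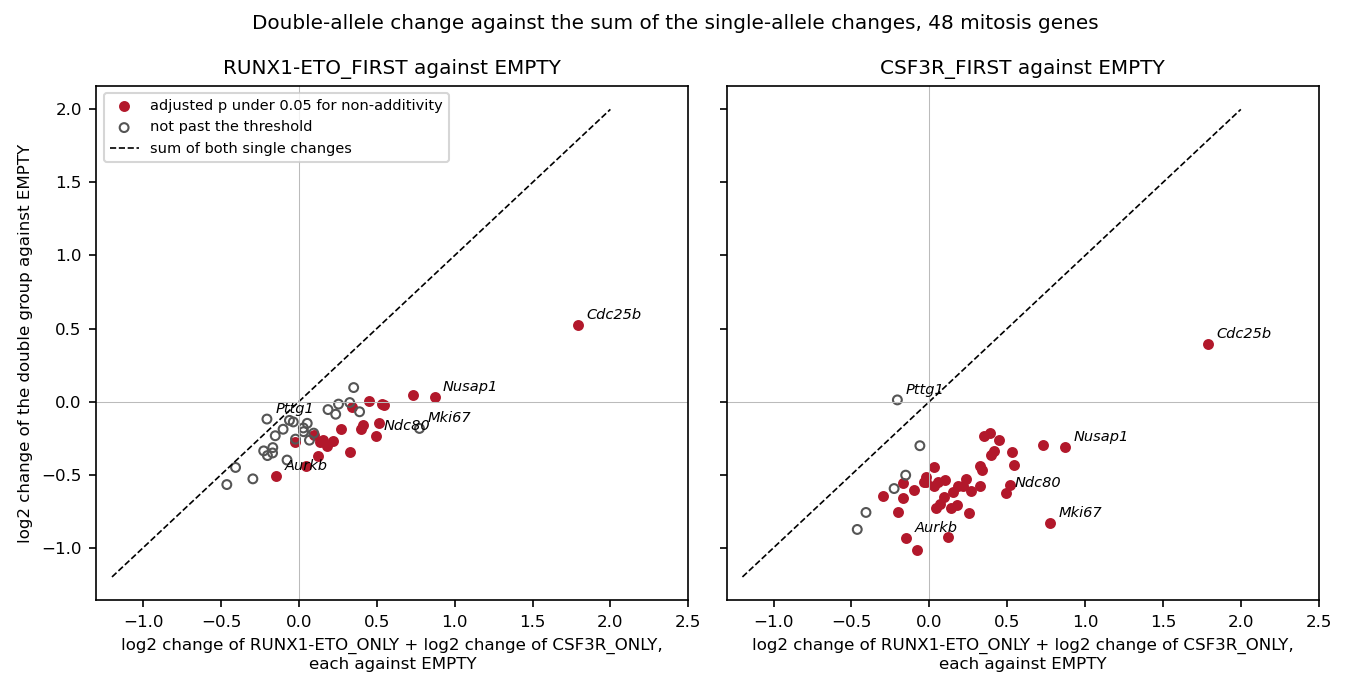
Log2 change of each double group against EMPTY (vertical axis) plotted on the sum of both single-allele changes (horizontal axis) for the 48 genes; the dashed line marks equality and filled points depart from it at an adjusted p under 0.05. In RUNX1-ETO_FIRST 22 genes and in CSF3R_FIRST 42 genes lie below the line past the threshold, with Cdc25b farthest to the right. The EMPTY libraries enter both axes of both panels, and the single-allele libraries enter the horizontal axis of both.

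Related lists, also chosen with earlier results of these data known, were counted in the same fits. Each count is read against the share of all tested genes. Of 58 further mitosis genes, 32 were higher (7.22% of all genes) and 0 lower (11.1%) with the fusion first. With the receptor alone 16 of them rose (19.9% of all genes) and 2 fell (13.2%), and in CSF3R_FIRST against EMPTY 51 fell (26.7%) and 1 rose (26.8%). Their largest order differences were those of Iqgap3 (0.60 ± 0.09), a scaffold of the cell cortex, and Cit (0.59 ± 0.12), citron kinase of the midbody. Of 15 inner kinetochore genes, 5 were higher with the fusion first (against 7.22% of all genes), and 14 fell in CSF3R_FIRST against EMPTY (26.7%). With the receptor alone 2 of the 15 fell, a share near the 13.2% of all genes. Of 17 genes of the anaphase-promoting complex and its regulators, 1 was higher with the fusion first, a share near the 7.22% of all genes. That gene was Fbxo5 (0.40 ± 0.09), which encodes the inhibitor EMI1. All 3 genes of condensin II fell in CSF3R_FIRST against EMPTY (26.7% of all genes), and 2 of 12 cohesin genes did, a share below that of all genes.

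Of 44 DNA replication genes, which act in S phase, 23 were higher (7.22% of all genes) and 0 lower (11.1%) with the fusion first. They were led by Pole (0.63 ± 0.13), the catalytic subunit of DNA polymerase epsilon, and Orc1 (0.59 ± 0.11), of the origin recognition complex. With the receptor alone 5 rose and 5 fell, shares below the 19.9% and 13.2% of all genes; the difference from the mitosis genes was not tested. In RUNX1-ETO_FIRST 33 replication genes fell against EMPTY (20.2% of all genes), in CSF3R_FIRST 41 did (26.7%), and 25 fell on adding the receptor to the fusion (10.3%). Of 19 tested regulators of mitosis genes, 4 were higher with the fusion first (against 7.22% of all genes). The largest differences were in Tfdp2 (0.77 ± 0.17), a partner of E2F factors, and E2f7 (0.57 ± 0.19), an atypical E2F repressor. Mybl2, which encodes B-Myb (0.51 ± 0.08), and Nfya, of NF-Y (0.40 ± 0.08), were the others. Nfyb (-0.18 ± 0.11) and Nfyc (0.03 ± 0.10), also of NF-Y, did not pass. Lin54 was not analysed here. Of 6 tested inhibitors of cyclin-dependent kinases, 2 were lower with the fusion first (11.1% of all genes): Cdkn2d (-0.47 ± 0.09, adjusted p = 0.00247), p19, and Cdkn2b (-1.47 ± 0.29, adjusted p = 0.00243), p15. Cdkn2b had 30, 19 and 18 counts in RUNX1-ETO_FIRST and 45, 61 and 67 in CSF3R_FIRST. All 6 inhibitors rose against EMPTY with the receptor alone (19.9% of all genes), in RUNX1-ETO_FIRST (23.7%) and in CSF3R_FIRST (26.8%). Cdkn2b had only 1, 2 and 1 counts in EMPTY. With the fusion alone, Cdkn2a, Cdkn2b and Cdkn2c rose (20.8% of all genes) and Cdkn1b and Cdkn2d fell (18.2%). On adding the fusion to the receptor, Cdkn1a (0.79) and Cdkn2b (2.88) rose (22.3%). Cdkn1b (-0.19), Cdkn2c (-0.38) and Cdkn2d (-0.30) then fell (22.6%), and Cdkn2a did not pass.

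Markers of differentiated cells also moved between the groups. The 15 mature neutrophil markers summed to 7288 to 7817 CPM in CSF3R_ONLY, 1283 to 1721 in EMPTY, 1273 to 1432 in RUNX1-ETO_ONLY, 2281 to 2647 in CSF3R_FIRST and 1501 to 1647 in RUNX1-ETO_FIRST; Fpr1 was at 0 in EMPTY. The 10 mast cell markers summed to 3752 to 3833, 1736 to 2170, 12219 to 13270, 29430 to 33760 and 16657 to 19920 CPM in the same groups; Fcer1a was at 0 in EMPTY. Between the orders, 12 of 15 neutrophil markers, 9 of 10 mast cell markers and 6 of 10 monocyte and macrophage markers were lower with the fusion first (11.1% of all genes) and 0 were higher (7.22%). The summed neutrophil markers were highest in CSF3R_ONLY, as was the sum of the mitosis genes; of the single markers Cxcr2 was highest in CSF3R_FIRST (462 CPM on average, against 270.2 in CSF3R_ONLY). The summed mast cell markers were highest in CSF3R_FIRST, where the sum of the mitosis genes was lowest; of the single markers Kit was highest in EMPTY (331 CPM, against 219 in CSF3R_FIRST). Their part in the results above was not tested.

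In the length-shifted libraries the 48 genes followed the length of their transcripts. Across these 48 genes, which share their library and are not independent, the deviation from the mean log2 level of the group correlated with log2 transcript length at -0.63 in EMPTY replicate 3, -0.70 in RUNX1-ETO_ONLY replicate 3, -0.73 in RUNX1-ETO_FIRST replicate 1 and -0.51 in CSF3R_FIRST replicate 3. Mki67 and Cenpf, with transcripts of 10.1 and 11.1 kb, were low in all 4 of these libraries, and short transcripts such as Pttg1 (1.67 kb) and Ube2c (2.19 kb) were high in EMPTY replicate 3, at 23.8 and 374 CPM. The coefficient of variation of the 48 genes in EMPTY had a median of 11.5%, against 16.7% for all tested genes, and reached 45.6% for Mki67. In CSF3R_ONLY, which has none of these libraries, the median was 3.67% and the highest 8.65%, that of Kif2c. The 48 order changes correlated with log2 length at r = 0.42, against 0.09 over all tested genes with a known length, as a description.

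**Figure D5:**
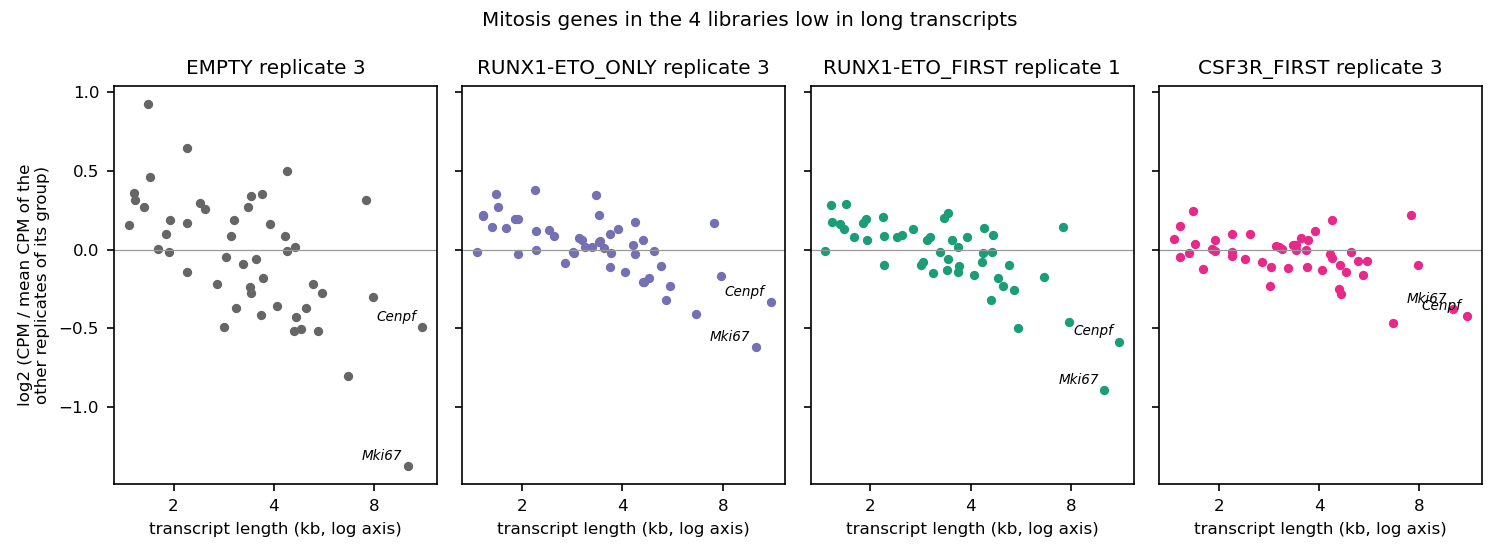
Deviation of each of the 48 genes (vertical axis, log2 of its CPM over the mean of the other replicates of the group) against the length of its longest protein-coding transcript (horizontal axis, kb, log scale) in the 4 length-shifted libraries. Mki67 and Cenpf, the 2 longest, lie below 0 in each panel.

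Where genes overlap on opposite strands, the partner's reads could enter a count if counting ignored strand, which the sources used here do not state. This applies to 20 of the 48 genes, among them Cdc25b (Spef1), Cdc20 (Elovl1), Nusap1 (Oip5), Kif20a (Cdc23), Ube2c (Tnnc2) and Ccna2 (Exosc9); the libraries themselves were strand-specific per the labels.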

How the data were processed

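The authors deposited 1 table of raw read counts per gene symbol with 1 column for each of the 15 libraries. All columns were used, and 0 were left out. Per the labels, libraries were made from mRNA of column-purified RNA with a strand-specific kit and sequenced on a BGI instrument. Trimmomatic, STAR, DESeq2 and mm10 appear, without roles, in the submitters' processing notes. Counting program, annotation and strand setting were not given in the sources used here. The entry that names no gene, 0.0179% to 0.0305% of the counts, was left out.

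Genes were filtered by edgeR's filterByExpr within groups (13123 kept; 13199 of 52327 had 10 counts in 3 libraries), and TMM factors were 0.921 to 1.09. All 15 libraries were fitted together in edgeR 4.0.16 (R 4.3.3) with 5 group means by robust quasi-likelihood F tests, 10 residual degrees of freedom, and adjustment by Benjamini and Hochberg over all genes at 0.05, two-sided. Log2 changes come from that fit, and CPM carry the TMM factors. Alternatives were DESeq2 1.42.0, other scalings and filters, fewer groups, a replicate block, length offsets and left-out libraries. The steps of the order comparison were also run on simulated counts with known changes. Those counts held no length-shifted libraries, so the run cannot show how the procedure handles such libraries.

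The 48 genes, the roles and the other lists were chosen with earlier results of these data known. Values in every library are given for the genes with the largest change of each role between the orders and in any pair comparison, the 3 largest rises and falls of each comparison, and up to 2 abundant genes not past the threshold. Positions and transcript lengths (longest protein-coding transcript) are from GENCODE M21 on mm10.

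Replicates of a group were not duplicates of each other. Labels number the replicates 1 to 3 in each group. Same-numbered libraries deviated together, with every correlation over 0.1, between EMPTY and RUNX1-ETO_ONLY (0.284, 0.283 and 0.455). The same held between EMPTY and CSF3R_FIRST (0.165, 0.136 and 0.370), but replicate 1 of CSF3R_FIRST correlated more with another EMPTY replicate. The third replicates of these groups were all length-shifted, and the part of that in the correlations was not tested. The results above come from a fit without pairing, and a replicate block was fitted only as an alternative.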

Additional observations from a re-analysis of the deposited data

Results flagged for a closer look

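The changes of the double groups against EMPTY differed, by the interaction test in edgeR, from the sum of the changes of the single-allele groups. In RUNX1-ETO_FIRST 22 genes were below the sum, with the largest departures in Cdc25b (-1.27), Nusap1 (-0.84) and Ndc80 (-0.73) on the log2 scale. In CSF3R_FIRST 42 genes were below it, with the largest departures in Mki67 (-1.60), Cdc25b (-1.40) and Nusap1 (-1.18).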

How the results depend on the processing

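Of the counts of mitosis genes that passed, those of the fusion added to the receptor (46 with length offsets, 47 under every other alternative run) varied least. Scaling by library sizes alone shifted the median of all genes by 0.10 between the orders, 0.09 for the fusion alone, -0.19 for CSF3R_FIRST against EMPTY, -0.14 for adding the receptor and -0.20 for the additivity of CSF3R_FIRST; 22 genes then fell on adding the receptor and 0 rose in CSF3R_FIRST against EMPTY. Genes that fell on adding the receptor numbered 5 with DESeq2's size factors, 3 with no filter, 16 with length offsets, 20 without the 4 length-shifted libraries, 5 with only the groups compared and 3 to 6 with 1 library left out. For the fusion alone, 2 rose with no filter, 1 with only the groups compared, 3 with the block in those 2 groups and 2 to 6 with 1 library left out; 15 fell with length offsets, 18 without the 4 libraries and 6 to 13 with 1 library left out. For the receptor alone, 29 rose and 1 fell without the 4 libraries, 7 rose with only the groups compared and 12 to 20 rose with 1 library left out. In RUNX1-ETO_FIRST against EMPTY, 10 fell with only the groups compared and 14 to 23 with 1 library left out. In CSF3R_FIRST against EMPTY, 2 rose without the 4 libraries and 1 to 2 with 1 library left out, and on adding the receptor 1 rose without the 4 libraries. With 1 library left out, 21 to 30 rose between the orders, and 13 to 22 fell below additivity in RUNX1-ETO_FIRST. Apart from these alternatives' own construction (fewer libraries or groups, fewer or more genes), the cause was not tested.

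Changes near 0 turned sign in some settings. For the fusion alone, Ccna2 was at 0.022 with library sizes alone, and Mki67 at -0.0048 with no filter, -0.082 with length offsets, -0.16 without the 4 libraries, -0.0090 with only the groups compared and -0.34 to 0.29 with 1 library left out. Pttg1 in CSF3R_FIRST against EMPTY was at -0.12 with library sizes alone and -0.15 to 0.39 with 1 library left out. On adding the receptor, Ube2c was at 0.018 without the 4 libraries and -0.11 to 0.097 with 1 library left out, and Mki67 was at -0.40 to 0.087. In RUNX1-ETO_FIRST against EMPTY, Top2a was at -0.11 to 0.030 and Mki67 at -0.54 to 0.095, and Ube2c departed from additivity by -0.31 to 0.054.

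With the replicate number as a block over all libraries, 35 genes were higher and 0 lower between the orders. The counts were 21 and 0 for the receptor alone and 1 and 20 in RUNX1-ETO_FIRST against EMPTY. Adding the receptor gave 0 and 7, and adding the fusion gave 0 and 47. The additivity tests gave 0 and 21, and 0 and 42. For the fusion alone and for CSF3R_FIRST against EMPTY, the block changed no count of calls over all libraries.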
